A study of Mus musculus with 35 samples.

Results

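Ctgf, Cyr61, Ankrd1, Amotl2, Lats2, Axl, Ajuba and Crim1 are 8 well known target genes of the transcription factor pair YAP/TEAD, and they are 8 of the 24421 genes listed in each count file. They were taken by name, and the set was chosen by the measured rise of Ctgf, which was among the largest increases in these data, with no comparison named. Ctgf in the populations and in the clones, and all 8 genes in the MT194 comparisons with Ad-Cre, for which earlier results were known, are therefore described here without a test. RNA-seq of poly(A) RNA was performed on 35 libraries from immortalized mouse embryonic fibroblasts (MEFs) with a Nelfb flox/- genotype, that is, with 1 null and 1 floxed allele of Nelfb. NELFB is a subunit of the negative elongation factor NELF, which holds RNA polymerase II paused shortly after it has started a transcript. The 20 population libraries came from cells carrying an empty lentiviral vector (EV), wild-type NELFB (WT), MT194, MT486 or DMT, the protein with both sets of substitutions, each collected 7 days after infection with Ad-Cre-GFP, which deletes the floxed allele, or Ad-GFP, with 2 libraries per group. By the methods of the study, MT194 loses binding to NELFA and NELFC, MT486 and the truncation Δ-C60 lose binding to NELFE, and each ectopic protein comes from a viral vector and not from the Nelfb locus. The 15 clone libraries came from lines grown from single clones after Ad-Cre, with 3 clones each of WT, MT194 and MT486 in the pLenti vector and of WT(N48) and Δ-C60 in the pBabe vector, so that vector and protein cannot be told apart in comparisons across the vectors. What N48 stands for is not given in the sources used here. Between 17969149 and 29080007 reads per population library, and between 18413284 and 27816723 per clone library, were assigned to genes.

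YAP and its relative TAZ are the output of the Hippo pathway. The kinases LATS1 and LATS2 phosphorylate them and so keep them in the cytoplasm, whereas unphosphorylated YAP and TAZ enter the nucleus, bind the TEAD factors on DNA and switch on transcription. In fibroblasts this output is known to respond to cell density, matrix stiffness and tension of the actin cytoskeleton. Several targets encode secreted or surface proteins (Ctgf, Cyr61, Crim1, Axl), and others act back on the pathway as inhibitors or adaptors (Lats2, Amotl2, Ajuba).

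TEAD factors are known to bind the letters GGAATG, so these letters were searched for on both strands in the RefSeq promoters, from 250 bases before to 50 bases after each gene's start, of the assembly GRCm38.p6. Of the 8 genes, 7 had an entry and Ctgf had none. Each of these 7 held the letters in a promoter, against 14.7% of all 32851 promoters. Of the 15 other known targets listed for this work, 9 had an entry and 1 of those, Ptpn14, held the letters. The AP-1 motif TGANTCA, in 7.81% of all promoters, and the CArG box, in 1.63%, had no match in the promoters of these genes. A match describes letters and does not show binding, and both target lists were drawn from known targets of YAP/TEAD. The match nearest to the start, on its upstream side, is shown for 6 genes, 5′ to 3′ on the gene's strand, to show that the letters stand in either orientation. Capitals mark GGAATG or its reverse complement CATTCC, the distance is that of the motif from the start, and GRCm38 is the assembly also called mm10. In Lats2, which has 2 promoters in the table, the only match lay past the start and is not printed.
Cyr61, chr3:145650071-145650100, minus strand, at −100: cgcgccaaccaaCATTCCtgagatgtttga
Ankrd1, chr19:36119950-36119979, minus strand, at −120: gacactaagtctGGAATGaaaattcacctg
Amotl2, chr9:102717727-102717756, plus strand, at −62: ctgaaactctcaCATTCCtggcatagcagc
Axl, chr7:25788949-25788978, minus strand, at −230: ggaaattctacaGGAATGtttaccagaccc
Ajuba, chr14:54577808-54577837, minus strand, at −161: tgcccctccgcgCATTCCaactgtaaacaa
Crim1, chr17:78200157-78200186, plus strand, at −76: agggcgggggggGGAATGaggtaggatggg
Ankrd1 and Ajuba held 2 matches each.

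Nelfb itself was examined first, since it checks the labels. The normalised read count of Nelfb (CPM, reads per 1e+06 reads on genes, scaled by the trimmed mean of M-values) was 46.1 and 39.5 in EV-GFP and fell to 7.97 and 5.46 in EV-Cre (log2 fold change −2.67, SE 0.215, adjusted p = 2.53e-05). In the populations with an ectopic protein and Ad-Cre, Nelfb was between 60.5 CPM in WT-Cre replicate 2 and 208 CPM in DMT-Cre replicate 2. Among the clones the range was wider. In the WT group, the library labelled clone 1 held 10.3 CPM and that labelled clone 3 held 15.5 CPM, near the EV-Cre populations, whereas WT clone 2 held 109 CPM. These 2 libraries go against their label, and each count of the 8 genes called by edgeR against the WT clones is given with and without them. Of 8 fibroblast markers, Col1a1 did not fall below 1491 CPM and Fn1 was the most abundant in most libraries, but Thy1 had no read in 24 of 35 libraries and reached only 0.160 CPM. The epithelial marker Epcam (at most 0.0979 CPM), the immune marker Ptprc (at most 0.120 CPM) and the macrophage marker Adgre1 (no read in 29 of 35 libraries) were at or near 0. Over all 35 libraries the summed level of 5 immune markers, led by Cd68, stayed at or below 5.98 CPM, and that of 5 endothelial markers at or below 5.23 CPM. The 5 epithelial markers, led by Krt19, summed to at most 101 CPM, in Δ-C60 clone 3.

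Ctgf (Ccn2, chr10:24595442-24598683, plus strand, GRCm38) encodes a secreted protein of the CCN family that binds matrix and growth factors. With Ad-GFP its level was 70.1 and 73.5 CPM in EV, 63.4 and 49.4 CPM in WT, 40.6 and 87.2 CPM in MT194, 53.8 and 65.0 CPM in MT486, and 40.1 and 49.9 CPM in DMT. With Ad-Cre it was 452 and 834 CPM in EV, 352 and 702 CPM in MT194, 400 and 697 CPM in MT486, and 424 and 672 CPM in DMT, but only 121 and 125 CPM in WT. The libraries thus stood in 3 separate tiers. All 8 libraries with Ad-Cre and without the wild-type construct lay above both WT-Cre libraries, and these lay above all 10 Ad-GFP libraries. The order of the means within the highest tier (EV 643, DMT 548, MT486 548 and MT194 527 CPM) is not resolved, because the libraries of neighbouring groups overlapped. Within each experiment EV-Cre was the highest of the 4. In experiments 1 and 2 the log2 ratio to it was −0.36 and −0.25 in MT194, −0.18 and −0.26 in MT486, and −0.09 and −0.31 in DMT, given as a description. The order among those 3 changed between the experiments. The same overlap holds for the Ad-GFP groups, whose means ran from 71.8 CPM in EV to 45.0 CPM in DMT. As log2 fold changes of Ad-Cre over Ad-GFP, the values were 3.16 (SE 0.461) in EV, 3.04 in MT194, 3.21 in MT486, 3.61 in DMT and 1.12 in WT, or 8.95-fold, 8.25-fold, 9.24-fold, 12.2-fold and 2.18-fold. Replicate 2 was the higher Ad-Cre library of Ctgf in each construct.

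**Figure D1:**
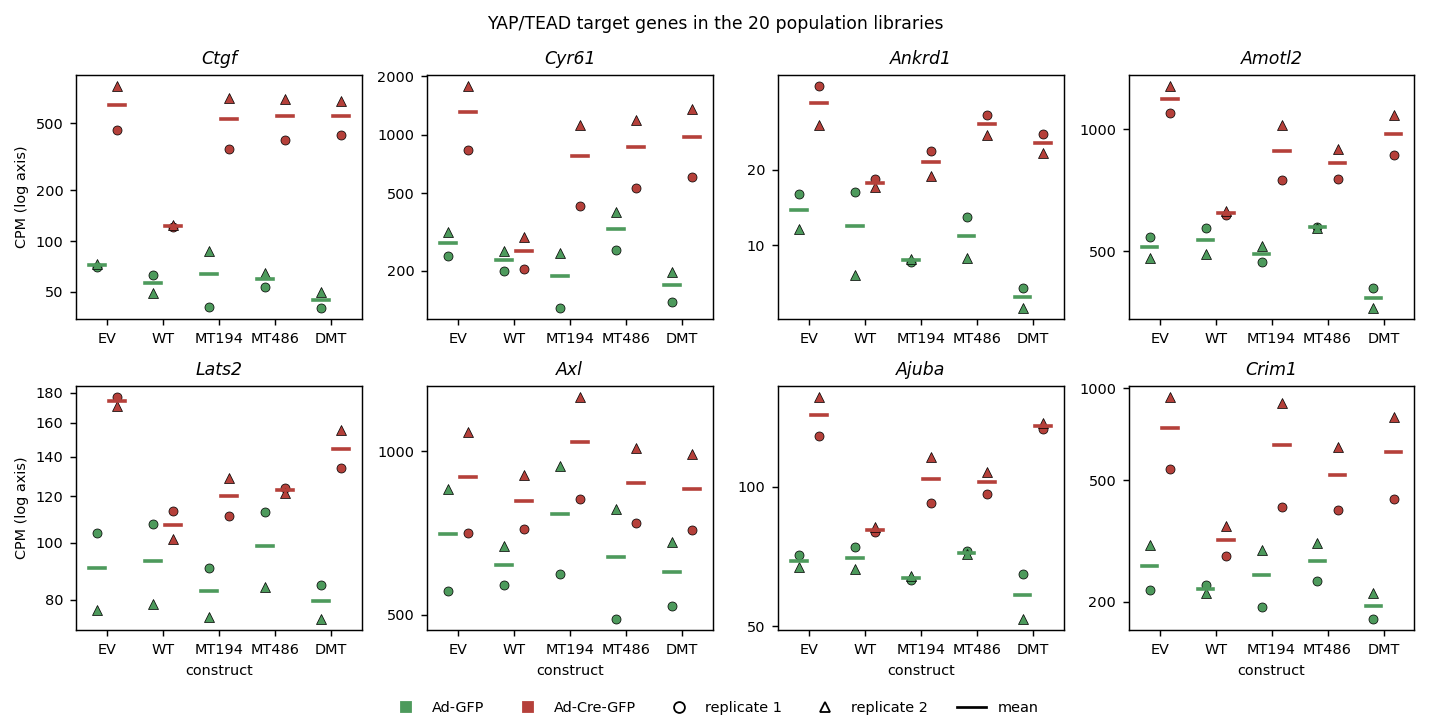
Levels of the 8 genes in CPM (log axis) in the 20 population libraries, by construct, with Ad-GFP in green and Ad-Cre-GFP in red. Circles and triangles are replicates 1 and 2, and short lines are the means of 2. Ctgf lies between 352 and 834 CPM with Ad-Cre in the constructs other than WT and between 121 and 125 CPM in WT-Cre, while the Axl libraries of the 2 viruses overlap in EV, MT194 and MT486.

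In cells with the empty vector, the fall of Nelfb went with higher levels of most of the other members. Of the 7 genes tested, 6 were higher in EV-Cre than in EV-GFP and none was lower. A call needs a log2 fold change beyond 0.5 in either direction together with an adjusted p below 0.05. By this rule 11.8% of all 13805 genes tested were called, 5.84% as higher. Cyr61, the other classical CCN target, had 239 and 317 CPM in EV-GFP and 837 and 1789 CPM in EV-Cre. The groups did not overlap, and the fitted rise was 4.72-fold (log2 fold change 2.24, SE 0.593, adjusted p = 0.0255). Crim1, a membrane protein with cysteine-rich repeats that binds bone morphogenetic proteins, went from 219 and 306 CPM to 546 and 939 CPM (2.83-fold, 95% confidence interval of the log2 fold change 0.57 to 2.43, adjusted p = 0.0355). Ankrd1, an ankyrin repeat protein first known from heart muscle, was the least abundant member and went from 16.1 and 11.6 CPM to 43.3 and 30.2 CPM (2.66-fold, log2 fold change 1.41, adjusted p = 0.0105). Unlike Ctgf, Cyr61 and Crim1, it was higher in replicate 1 than in replicate 2.

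The genes that act back on the pathway rose as well. Amotl2, an angiomotin family protein that binds YAP, had 542 and 481 CPM in EV-GFP and 1100 and 1283 CPM in EV-Cre (2.33-fold, log2 fold change 1.22, SE 0.214, adjusted p = 0.00256). Lats2, a kinase that inhibits YAP, had 104 and 76.8 CPM against 177 and 171 CPM (1.93-fold, log2 fold change 0.95, adjusted p = 0.00843). Ajuba, a LIM domain protein that binds and restrains LATS kinases, had 71.1 and 67.0 CPM against 129 and 156 CPM (2.06-fold, log2 fold change 1.04, SE 0.149, adjusted p = 0.000652). Ajuba had the smallest error of the 8 genes. Axl, a receptor tyrosine kinase of the TAM group, was not called, with 553 and 854 CPM in EV-GFP and 708 and 1087 CPM in EV-Cre (log2 fold change 0.35, 95% confidence interval −0.43 to 1.14, adjusted p = 0.604). Its 2 experiments differed from each other more than the viruses did, and within each the log2 ratio of Ad-Cre to Ad-GFP was 0.36 and 0.35. The calls in EV rest on the spread shared by all 20 libraries. When these 4 libraries were fitted alone 0 members were called, among 1.8% of all genes. Cyr61 and Crim1 lost their calls without EV-Cre replicate 2 (5.23% of all genes called) or EV-GFP replicate 1 (6.78%), Ankrd1 without EV-Cre replicate 1 (7.53%), and all but Amotl2 and Ajuba without EV-GFP replicate 2 (5.88%).

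With wild-type NELFB put back, none of the 7 genes tested was called between WT-Cre and WT-GFP by edgeR, where 0.0217% of all genes were called, and none had an unadjusted p under 0.05. DESeq2 called 0 of them too, among 0.246% of all genes. Cyr61 had 199 and 252 CPM with Ad-GFP and 204 and 298 CPM with Ad-Cre, and its libraries overlapped (log2 fold change 0.15, 95% confidence interval −1.07 to 1.38). Ankrd1 had the highest estimate among those tested, with 16.3 and 7.61 CPM against 18.3 and 17.1 CPM (0.57, interval −0.10 to 1.24). The estimates of the others were 0.23 for Amotl2, 0.21 for Lats2, 0.39 for Axl, 0.20 for Ajuba and 0.53 for Crim1. All of these were above 0. In the edgeR fit with the experiment as a term, Axl had an adjusted p of 0.0616 in WT and was not called. Leaving out Ctgf and the MT194 cells, which may have entered the choice of the set, the other 7 genes were higher with Ad-Cre than with Ad-GFP in both experiments in each of the other 4 constructs. Of all genes tested, 16.1% showed this. The 7 genes were measured in the same libraries and chosen with earlier results known. They are not independent observations, and nothing is read from this count.

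Whether the effect of Ad-Cre was smaller in WT than in EV was tested as a difference of the 2 effects. The estimates were −2.09 for Cyr61 (SE 0.811), −0.99 for Amotl2, −0.97 for Crim1, −0.84 for Ajuba, −0.84 for Ankrd1 and −0.74 for Lats2 on the log2 scale, but none passed in the fit without the experiment as a term (lowest adjusted p = 0.104, Ajuba), where 0.681% of all genes were called. Of these, Cyr61, Amotl2, Lats2 and Ajuba had an unadjusted p under 0.05, and DESeq2 called 2, Amotl2 and Ajuba, among 1.68% of all genes. The replicate numbers mark 2 independent experiments, and with the replicate as a block all 6 were called (adjusted p from 0.00148 for Cyr61 to 0.0446 for Crim1), among 13.4% of all genes. Axl had an estimate of 0.04 and was not called in either fit. Ctgf, described only, had −2.04.

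WT-Cre was also set against EV-Cre, that is, 2 populations with the same virus that differ in the vector. Cyr61 was lower in WT-Cre (204 and 298 CPM against 837 and 1789 CPM, log2 fold change −2.39, SE 0.596, adjusted p = 0.0295), as were Amotl2 (616 and 630 CPM against 1100 and 1283 CPM, −0.94, adjusted p = 0.0187) and Ajuba (79.6 and 81.7 CPM against 129 and 156 CPM, −0.82, adjusted p = 0.00638). These are 3 of 7 tested, and 7.37% of all genes were called, 3.48% as lower. Ankrd1 (−1.05, adjusted p = 0.0538), Lats2 (−0.70, adjusted p = 0.0503) and Crim1 (−1.22, adjusted p = 0.0990) did not pass. With the replicate block these 3 were called too (adjusted p = 0.000175, 0.00228 and 0.00102), which makes 6 of 7 among 23% of all genes, and DESeq2 called the same 6 among 6.08%. The 3 calls of the fit without the block were lost when EV-Cre replicate 2, WT-Cre replicate 1 or WT-Cre replicate 2 was left out, where 1.6, 1.59 and 1.23% of all genes were called.

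**Figure D2:**
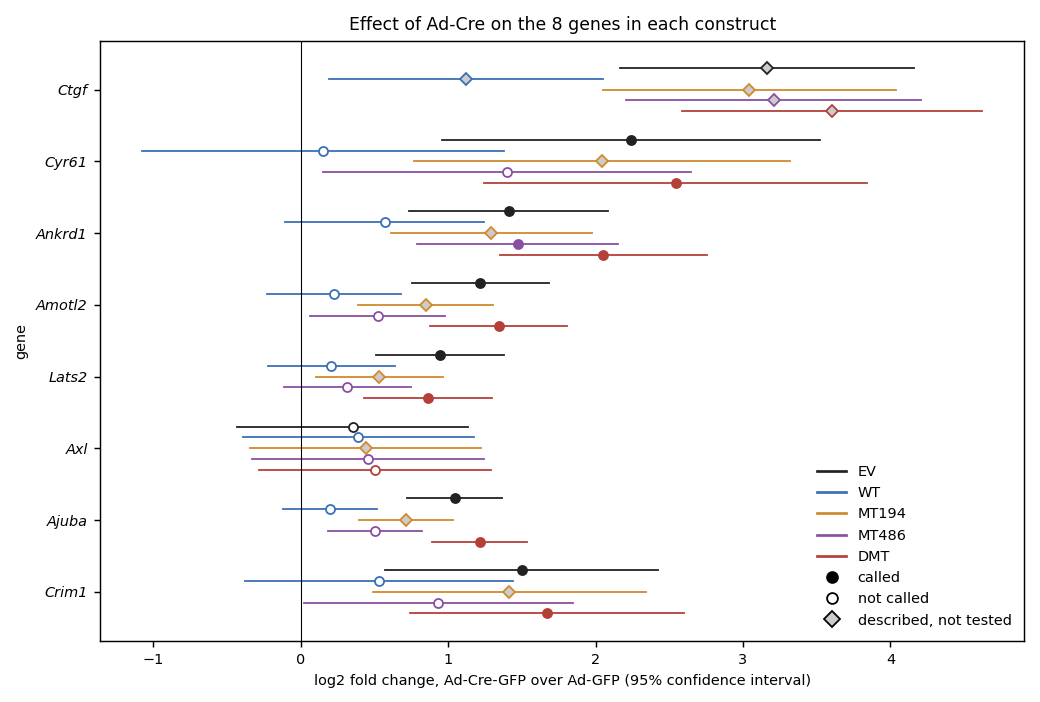
Log2 fold change of Ad-Cre-GFP over Ad-GFP with its 95% confidence interval for each of the 8 genes in each of the 5 constructs (colours). Filled circles were called, open circles were not, and grey diamonds are values described without a test. The WT estimates of the tested genes lie between 0.15 and 0.57, and 6 genes are called in both EV and DMT.

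The number of genes called differed between DMT and MT486, as did the share of all genes called. These mutants were not tested against each other. In DMT, 6 of 7 genes were higher with Ad-Cre, where 9.92% of all genes were called and 4.58% as higher. Cyr61 went from 138 and 197 CPM to 609 and 1349 CPM (5.84-fold, log2 fold change 2.54, SE 0.60, adjusted p = 0.0166). Ankrd1 went from 6.76 and 5.62 CPM, its lowest levels in any population, to 27.8 and 23.4 CPM (4.15-fold, log2 fold change 2.05, adjusted p = 0.00161). Crim1 (1.67), Amotl2 (1.34), Ajuba (1.22) and Lats2 (0.86) rose as well, with adjusted p-values between 0.000307 and 0.0255. Axl had 518 and 682 CPM against 715 and 988 CPM and was not called (0.51, adjusted p = 0.449). With the replicate block its adjusted p in edgeR was 0.00252, but its log2 fold change of 0.499 missed the threshold of 0.5. With DMT-Cre replicate 2, DMT-GFP replicate 1 or DMT-GFP replicate 2 left out, 3 remained called, each time Ankrd1, Amotl2 and Ajuba, among 4.75, 5.61 and 3.69% of all genes. When the DMT groups were fitted alone, 3 members were called, among 3.63% of all genes.

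In MT486 only Ankrd1 was called (12.9 and 8.88 CPM against 33.1 and 27.6 CPM, 2.78-fold, log2 fold change 1.47, SE 0.315, adjusted p = 0.0295), where 2.42% of all genes were called and 1.14% as higher. Cyr61 had 254 and 401 CPM with Ad-GFP and 533 and 1195 CPM with Ad-Cre, without overlap, but its interval was wide (2.64-fold, 95% confidence interval of the log2 fold change 0.15 to 2.65, adjusted p = 0.268). Crim1 (0.93), Amotl2 (0.52), Ajuba (0.50), Axl (0.46) and Lats2 (0.32) were not called. With the replicate block Cyr61 (adjusted p = 0.00137), Amotl2 (0.0152), Ajuba (0.00551) and Crim1 (0.00934) were called besides Ankrd1, which makes 5 of 7 among 12.1% of all genes, and DESeq2 called Ankrd1 and Ajuba among 2.75%. Axl had an adjusted p of 0.007 with the block, but its log2 fold change of 0.48 stayed under the threshold. The call of Ankrd1 without the block was lost whenever 1 of the 4 MT486 libraries was left out, with 0.539 to 0.909% of all genes called.

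In MT194 the values were, as a description, 2.05 for Cyr61 (128 and 246 CPM against 427 and 1121 CPM), 1.42 for Crim1, 1.29 for Ankrd1, 0.85 for Amotl2, 0.71 for Ajuba, 0.53 for Lats2 and 0.44 for Axl. The libraries of 7 of the 8 genes did not overlap, Axl being the exception. The share of all genes higher without overlap was 16.7%, and nothing is read from it, since these cells may have entered the choice of the set. The values of each construct stand on their own Ad-GFP libraries.

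Between MT486-Cre or DMT-Cre and EV-Cre, none of the 7 genes was called by edgeR without the block or by DESeq2, which called 1.65% and 0.0205% of all genes. MT194-Cre against EV-Cre is described only, with Ankrd1 (−0.78), Lats2 (−0.54), Ajuba (−0.45) and Amotl2 (−0.43) lower without overlap, as were 16% of all genes, from which nothing is read. For DMT-Cre against EV-Cre 0 of 7 genes were called and 0 had an unadjusted p under 0.05, with estimates from −0.52 to −0.07 (0.00724% of all genes called by edgeR). For MT486-Cre against EV-Cre the estimates ran from −0.60 to −0.04 and 0 of 7 were called (0.362% of all genes by edgeR), with 3 at an unadjusted p under 0.05, namely Amotl2, Lats2 and Ajuba. With the replicate block Amotl2 (−0.53, adjusted p = 0.0191) and Lats2 (−0.50, adjusted p = 0.0341) were called as lower in MT486-Cre, among 8.95% of all genes. The difference of the Ad-Cre effect from that in EV was not called for any tested gene in MT486 (0 of 7 by edgeR and by DESeq2, 3 at an unadjusted p under 0.05) or DMT (0 of 7 by both and 0 unadjusted), where Nelfb itself made up the 0.00724% of genes called by edgeR in each and DESeq2 called 0.176% and 0.00409%. The 95% confidence intervals of those differences were still wide, from −2.58 to 0.90 for Cyr61 in MT486 and from −1.43 to 2.04 in DMT.

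With Ad-GFP, which leaves the floxed allele intact, 0 of the 7 genes other than Ctgf were called by edgeR or DESeq2 in WT, MT194, MT486 or DMT against EV (0, 0, 0.00724 and 0% of all genes called by edgeR, 0.00409, 0.0164, 0.0409 and 0.0123% by DESeq2). Only Ankrd1 in DMT-GFP had an unadjusted p under 0.05. Its libraries held 6.76 and 5.62 CPM against 16.1 and 11.6 CPM in EV-GFP (log2 fold change −1.16, 95% confidence interval −1.86 to −0.47), and with the replicate block it was called as lower (adjusted p = 0.0385), among 0.058% of all genes. The other 7 genes also had estimates below 0 in DMT-GFP, in both experiments, and 6 of the 8 were lower than in EV-GFP without overlap, as were 6.71% of all genes. The median of the 8 was −0.42, against −0.01 over all genes, and these libraries are the baseline of the DMT folds above. The Ctgf estimates ran from −0.67 in DMT to −0.17 in MT194. They are described only, since these libraries are the baseline of the rise that chose the set.

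Levels can be compared between genes only per length, for which CPM were divided by the kilobases of annotated exons. In EV-GFP the highest mean levels were 140 CPM per kb for Axl (SD 42.3, n = 2) and 138 for Cyr61 (SD 27.5), which did not differ beyond their spread. Amotl2 (81.4), Crim1 (43.8), Ctgf (25.1), Ajuba (18.9), Lats2 (13.0) and Ankrd1 (4.79 CPM per kb) followed. In EV-Cre the order began with Cyr61 (650 CPM per kb, SD 333), then Ctgf (225, SD 94.2), Amotl2 (189) and Axl (178). Ctgf, Amotl2 and Axl could not be separated at that spread, and Ankrd1 was still the lowest at 12.7 CPM per kb.

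Other genes of the pathway were examined from lists that leave out the 8 members. Their counts of called genes stand beside the shares of all genes called as higher, 5.84% in EV and 4.58% in DMT. The Hippo kinase cascade had 16 other genes, none of which was called with Ad-Cre in EV, WT, MT486 or DMT, and its median log2 fold change in EV was −0.05 against 0.00 over all genes. Among the effectors, 7 of the 8 that passed the filter on low counts had estimates above 0 in EV, with a median of 0.20, and 1 was called. Yap1 had 282 and 207 CPM in EV-GFP and 303 and 233 CPM in EV-Cre (log2 fold change 0.13, adjusted p = 0.795), and Wwtr1, which encodes TAZ, had 177 and 116 CPM against 250 and 162 CPM (0.49, adjusted p = 0.362). Tead1 (0.32), Tead2 (−0.47), Tead3 (0.00) and Tead4 (0.26) were not called in EV. Vgll3, a TEAD cofactor, was called in EV (1.45, adjusted p = 0.0232) and in DMT (1.52), where Tead4 was called too (0.81, from 4.83 and 4.75 CPM to 8.71 and 8.05 CPM, adjusted p = 0.0173).

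Among 17 upstream regulators other than the members, 3 were higher in EV-Cre, Rassf1 (0.97, adjusted p = 0.000788), Wwc1 (0.96, adjusted p = 0.0116) and Frmd6 (0.61, adjusted p = 0.0233), and none was lower. Rassf1 encodes a scaffold of the MST kinases, and Wwc1 and Frmd6 encode the adaptors KIBRA and Willin. The same 3 were also higher in DMT (0.98, 0.96 and 0.58), and 0 upstream regulators were called in WT. Of 15 other known targets 4 were higher in EV-Cre, namely F3, the tissue factor gene (160 and 187 CPM against 421 and 670 CPM, 1.65, adjusted p = 0.0293), Nt5e (1.26), Nuak2 (1.12) and Gadd45a (0.87), but the median of the list was −0.02. F3, Nt5e and Nuak2 were higher in DMT, 0 were called in WT or MT486, and F3 (−1.84) and Nuak2 (−0.77) were lower in WT-Cre than in EV-Cre. Of the 4 other CCN genes, Wisp1 (1.10) and Wisp2 (1.29) were higher in EV-Cre, as in DMT (1.12 and 1.35). The 4 other TAM receptors and ligands had no call in these comparisons, and the median of that list in EV was −0.73.

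**Figure D3:**
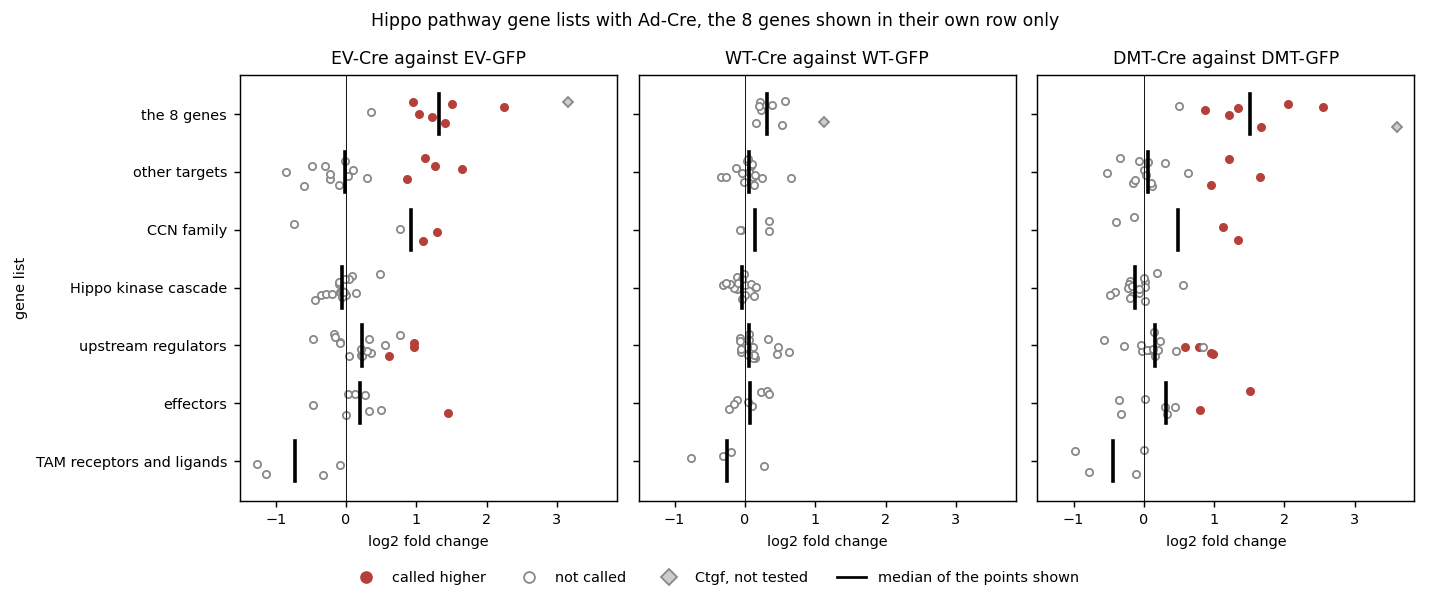
Log2 fold change of Ad-Cre over Ad-GFP in EV, WT and DMT for the 8 genes and for pathway lists without them, one point per gene that passed the filter. Red points were called higher, open points were not called, the diamond is Ctgf, and vertical bars are medians. In EV the medians are 1.32 for the 8 genes, −0.02 for the other targets and −0.05 for the kinase cascade. The 8 genes include Ctgf, whose rise chose the set, so nothing is read from the difference.

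Over the 20 population libraries the genes whose log2 CPM ran most closely with Ctgf, of 10600 with a mean of at least 5 CPM, were Actn1 (Pearson r = 0.985), Myh9 (0.985), Inhba (0.984), Thbs1 (0.977) and Thbd (0.973). Actn1 and Myh9 encode actin-binding and motor proteins of stress fibres, Inhba an activin subunit, and Thbs1 and Thbd matrix and surface proteins. Crim1 ranked 35, Amotl2 45, Cyr61 60, Ajuba 61, Ankrd1 298, Lats2 435 and Axl 985. These libraries share 10 groups and 2 experiments, so the values describe the same rise with Ad-Cre and carry no test.

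Of 5 markers of smooth muscle and myofibroblast contractility, Acta2, Tagln and Cnn1 were higher with Ad-Cre in EV, MT486 and DMT. The summed level of the 5 markers was 55.3 and 42.8 CPM in EV-GFP and 293 and 263 CPM in EV-Cre, but 59.4 and 39.7 CPM in WT-GFP and 146 and 146 CPM in WT-Cre. Acta2, smooth muscle actin, was higher in EV-Cre (17.8 and 15.9 CPM against 134 and 123 CPM, log2 fold change 2.93, adjusted p = 2.02e-05) and also in WT-Cre (1.77, adjusted p = 0.0147), as was Cnn1 (1.84, adjusted p = 0.0383). These were 2 of the 3 genes called in that comparison, where no member passed. Tagln, in most libraries the most abundant of the 5, and Cnn1 were higher in EV-Cre too (2.22 and 2.28). All 3 were higher in MT486 (Acta2 3.60) and in DMT (Acta2 3.44) with Ad-Cre. The epithelial marker Krt19 was higher in DMT-Cre as well (2.13 and 1.26 CPM against 5.50 and 4.74 CPM, 1.61, adjusted p = 0.0250). Myh11 and Des, which define differentiated muscle, stayed at or below 2.62 and 3.00 CPM in every library. The Pearson r of Acta2 with Ctgf was 0.951 over the 20 populations and 0.831 over the 15 clones, as a description over libraries that share groups. In bulk RNA, a change in the share of a cell type and a change per cell cannot be told apart, and the part of these contractile genes in the result was not tested.

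**Figure D4:**
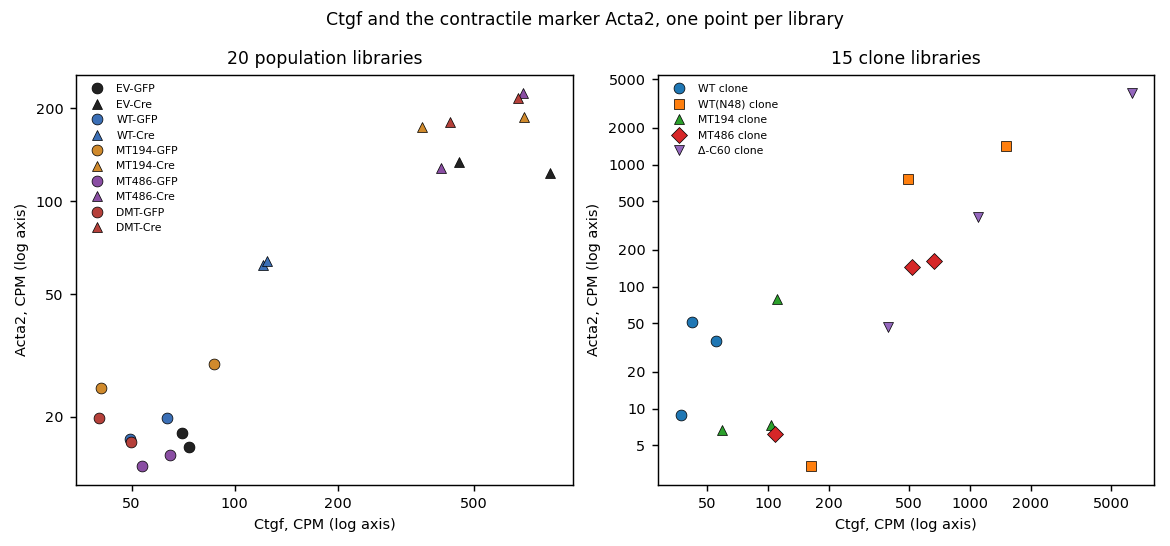
Acta2 against Ctgf in CPM (both axes log), one point per library, for the 20 populations (left, circles Ad-GFP, triangles Ad-Cre) and the 15 clones (right). In the populations the WT-Cre points lie between the Ad-GFP points and those of the other constructs with Ad-Cre, and in the clones Δ-C60 clone 3 lies highest on both axes.

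In the clones, each of them grown from a single colony after Ad-Cre, Ctgf varied widely between lines of MT486, WT(N48) and Δ-C60. It varied less between the WT clones and between the MT194 clones. The median SD of the log2 CPM of Ctgf within a group was 1.42 in the clones and 0.362 in the populations. For the other members it was wider in the clones too. Cyr61 had 0.576 and 0.567, Ankrd1 0.729 and 0.210, Lats2 0.410 and 0.154, and Ajuba 0.349 and 0.0838. Ctgf had 42.4, 37.0 and 55.6 CPM in the WT clones and 59.6, 103 and 111 CPM in the MT194 clones. It had 662, 519 and 108 CPM in the MT486 clones, 1508, 490 and 164 CPM in the WT(N48) clones and 1093, 391 and 6309 CPM in the Δ-C60 clones. By mean the order was Δ-C60, WT(N48), MT486, MT194 and WT, and of the neighbouring pairs in this order only MT194 and WT did not overlap. Each WT(N48) clone lay above each clone labelled WT, of which clones 1 and 3 were low in Nelfb.

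**Figure D5:**
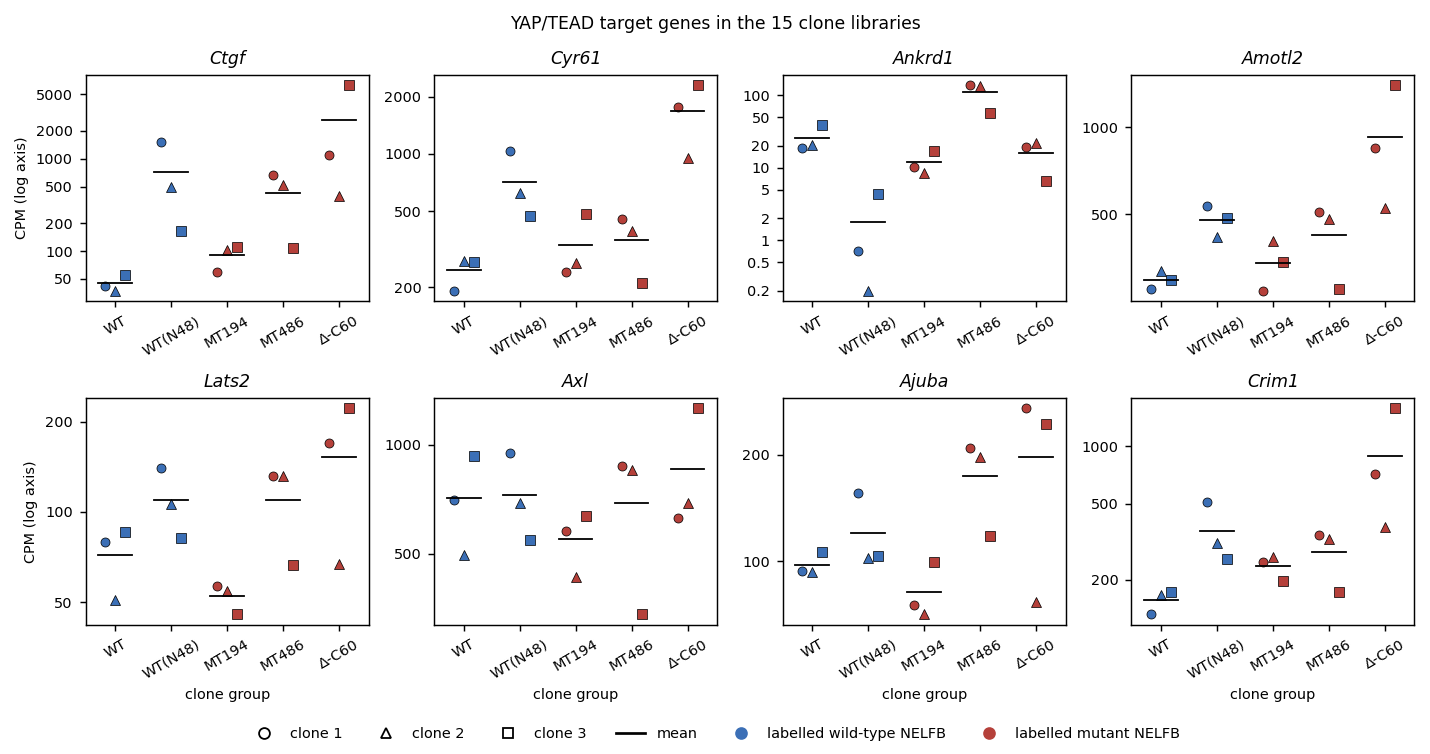
Levels of the 8 genes in CPM (log axis) in the 15 clone libraries. Symbols are clones 1 to 3, black lines are means of 3, blue groups are labelled wild-type and red groups mutant NELFB, with Nelfb low in WT clones 1 and 3. Ctgf runs from 37.0 to 6309 CPM, and Ankrd1 is below 5 CPM in the 3 WT(N48) clones only.

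Δ-C60 clones were set against the clones labelled WT, and 3 of the 7 genes tested were higher, where 8.33% of 13223 genes tested were called and 5.11% as higher. Ctgf, described only, had the largest estimate of the 8 (57.7-fold, log2 fold change 5.85, SE 1.15). Cyr61 had 191, 273 and 271 CPM in WT against 1770, 957 and 2304 CPM in Δ-C60 (6.85-fold, log2 fold change 2.78, SE 0.425, adjusted p = 0.00613). Crim1 (2.51, adjusted p = 0.0124) and Amotl2 (1.64, adjusted p = 0.0148) were higher as well. Δ-C60 clone 3 was the highest library for all 4 of these and also had the highest summed contractile markers (5181 CPM, against 82.6 to 92.7 CPM in the WT clones) and 100 CPM of the keratin Krt19. Without that clone the same 3 genes were called, among 5.95% of all genes, and Ctgf had 4.04. Only Cyr61 was called without WT clone 1, among 0.742% of all genes, or without WT clone 3, among 1.05%. Without Δ-C60 clone 2, Lats2 and Ajuba were called besides the 3, among 13.3%. Without WT clones 1 and 3 together, the libraries whose Nelfb went against the label, the WT arm was 1 library, assumed to vary like the other groups. Only 0.0214% of all genes were then called, so that the count of 0 members tells little, and Ctgf had 6.10. This comparison also crosses the vectors.

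Within the pBabe vector, Δ-C60 against WT(N48), 0 of 7 genes were called by edgeR (0% of all genes), although Cyr61 (1.24), Ankrd1 (3.12), Amotl2 (0.95) and Crim1 (1.31) had an unadjusted p under 0.05, and DESeq2 called Ankrd1, among 0.95% of all genes. Without Δ-C60 clone 2, which was the lowest of its group for Ctgf, Cyr61, Amotl2, Lats2, Ajuba and Crim1, the genes Amotl2, Ajuba and Crim1 were called as higher, among 2.33% of all genes. Within the pLenti vector 0 of 7 genes were called for MT194 against WT by edgeR (2.9% of all genes) or DESeq2 (4.67%), with none at an unadjusted p under 0.05. For MT486 against WT edgeR called 0 (0% of all genes), with Ankrd1 and Ajuba at an unadjusted p under 0.05, and DESeq2 called 0 too, among 0.667%. Ctgf had 3.26 there. Without WT clones 1 and 3, edgeR called 0 members and 0.00714% of all genes in either comparison, with 1 WT library left, which tells little. The MT486 clones split in themselves, with clones 1 and 2 close together and clone 3 lower for each of the 8 genes.

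Ankrd1 did not follow the other members in the clones. It had only 0.710, 0.200 and 4.41 CPM in the WT(N48) clones (14, 4 and 126 reads), where Ctgf and Cyr61 were high, and 18.7, 20.6 and 38.9 CPM in the WT clones, where they were low. The MT486 clones had 139, 135 and 57.0 CPM, the highest levels of any group. Ankrd1 was higher in MT486 than in WT(N48) (log2 fold change 5.90, SE 0.916, adjusted p = 0.0263, 0.287% of all genes called and 0.113% as higher) and in WT than in WT(N48) (3.82, SE 0.84, adjusted p = 0.0414, 2.1% called and 0.93% as higher). In both comparisons it was the only one of the 7 genes tested that was called. With the replicate block it was called in neither (edgeR adjusted p = 0.0513 and 0.0651). Comparisons of MT486, WT and MT194 clones with WT(N48) all cross the vectors. The first call was lost without MT486 clone 1, MT486 clone 2 or WT(N48) clone 1, where 0.0223, 0.0148 and 0.0668% of all genes were called. The second was lost without any single clone of either group other than WT(N48) clone 3 (0.0741 to 0.608% of all genes called), and without WT clones 1 and 3 together (0.0143%). Without WT(N48) clone 3, Cyr61 was called as lower in WT as well, among 4.5% of all genes. DESeq2 called Cyr61 and Ankrd1 in WT against WT(N48), among 4.7% of all genes, and Ctgf had −4.00 in the edgeR fit. Against WT(N48), MT194 had no member called by edgeR (0 of 7, 5.82% of all genes), with Cyr61 (−1.10), Ankrd1 (2.69) and Lats2 (−1.06) at an unadjusted p under 0.05, and DESeq2 called the first 2 among 7.26%. Ctgf had −2.98. Without WT(N48) clone 3, edgeR called Ankrd1 there, among 10.3% of all genes. Over the 15 clones Ankrd1 had a Pearson r of −0.239 with Ctgf, whereas it had 0.855 over the populations. Crim1 (0.937), Amotl2 (0.911), Cyr61 (0.893), Lats2 (0.860), Ajuba (0.762) and Axl (0.614) kept positive values over the clones. The genes most like Ctgf there, of 10451, were Esyt1 (0.957), Tnk2 (0.947) and Myl12a (0.942).

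Other pathway genes were called in the clones as well. In Δ-C60 against WT, where 5.11% of all genes were called as higher, Wwtr1 (1.32, adjusted p = 0.00493), Tead3 (1.39, adjusted p = 0.0157) and Tead1 (1.11, adjusted p = 0.0449) were higher, which was 3 of 8 effectors. Wwtr1 had 141, 165 and 136 CPM in WT and 349, 464 and 291 CPM in Δ-C60. Of the 15 other targets Asap1 (1.01), F3 (1.93) and Ptpn14 (1.04) were higher there, of the upstream regulators Fat4 (3.68), and of the CCN family Wisp1 (1.56). In MT194 against WT(N48), where 5.82% of all genes were called, Asap1 (−1.25), Ptpn14 (−0.90) and Myof (−0.82) were lower, as was the kinase gene Stk3 (−0.52, adjusted p = 0.0377). Asap1 was lower in WT than in WT(N48) as well (−1.06), and in MT194 against WT the calls were Wisp2 (2.98), Wwc1 (−1.30) and Gas6, the ligand of Axl (441, 35 and 290 reads against 4, 1 and 2 reads in WT, adjusted p = 0.0286). The comparisons of these pathway genes with WT were not repeated without WT clones 1 and 3.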

How the data were processed

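The deposited counts per gene were made by the authors from 50-base single reads of stranded poly(A) libraries, aligned to mm10 with Bowtie2, with alignments under a mapping quality of 30 removed and reads counted with HTSeq. The submitters' processing notes also name SAMtools and DESeq2. The annotation and the strand setting of the counting are not given in the sources used here, so reads of overlapping or antisense genes may be shared. Reads assigned to no gene (11.7% to 21.3% per population library, 9.14% to 12.0% per clone library) were left out of library sizes.

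The 20 population and 15 clone libraries were fitted separately with edgeR 4.0.16 (R 4.3.3), with filterByExpr, trimmed-mean scaling, 1 mean per group and the robust quasi-likelihood test. All 8 genes passed the filter in both fits. P-values were adjusted over all 13805 or 13223 genes tested by Benjamini-Hochberg. SE is the log2 fold change divided by the square root of F. DESeq2 1.42.0 served as an alternative. Log2 CPM had a prior count of 2. The script was tested on simulated data.

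Replicate numbers were taken from the labels. In the populations the methods name 2 independent experiments, and same-numbered libraries deviated together in 45 of 45 pairs of groups (correlation 0.420 to 0.730). The blocked value is therefore given where it changes a call, and for Axl in Ad-Cre against Ad-GFP. In the clones 3 of 30 pairs exceeded 0.1. P-values measure the spread between these libraries. Depth was similar, and the number of libraries limits the precision.

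Named were all 8 genes, Nelfb, the main effectors, up to 4 called genes of each other list by size of change with a mean of at least 1 CPM, the 5 and 3 genes most like Ctgf, and the most abundant and absent cell markers. One gene of the upstream list is not reported here. The genes and lists were chosen with earlier results of these data known, and so support nothing by themselves. Tests of Ctgf in the clones and with Ad-GFP were planned, but its values are given without them, since the choice of the set names no comparison. Positions come from GENCODE M21, where Ctgf and Cyr61 are listed as Ccn2 and Ccn1, and promoters from RefSeq.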

Additional observations from a re-analysis of the deposited data

Results flagged for a closer look

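The effect of Ad-Cre on Nelfb differed between each construct and EV in the tested difference of effects. On the log2 scale Nelfb had 2.27 in WT minus EV, 3.38 in MT194 minus EV, 3.18 in MT486 minus EV and 4.15 in DMT minus EV, with edgeR adjusted p-values of 0.00574, 0.000449, 0.000890 and 4.26e-05. No member of the 8 genes met such a rule in the fit without the replicate block, and groups of 2 or 3 libraries were not examined for single outlying libraries.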

How the results depend on the processing

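The counts of members called moved as follows, with the share of all genes called in parentheses. Fitting the compared groups alone gave 0 (1.8%) in place of 6 for EV-Cre against EV-GFP, 3 (3.63%) in place of 6 for DMT-Cre against DMT-GFP, 0 (0.0381%) in place of 1 for MT486-Cre against MT486-GFP and 1 (2.8%) in place of 3 for WT-Cre against EV-Cre. In the clones it gave 0 (0.375%) in place of 1 for MT486 and 2 (4.56%) in place of 1 for WT against WT(N48), and 1 (0.627%) in place of 3 for Δ-C60 against WT. With the replicate block the counts were 5 for MT486-Cre against MT486-GFP, 6 for WT-Cre against EV-Cre, 2 for MT486-Cre against EV-Cre, 1 for DMT-GFP against EV-GFP and 6 for the Ad-Cre effect in WT minus that in EV, and in the clones 0 (0.144%) for MT486 and 0 (0.771%) for WT against WT(N48). The block changed no other count. DESeq2 gave 2 for MT486-Cre against MT486-GFP, 6 for WT-Cre against EV-Cre, 2 for the effect in WT minus EV, and 2 for MT194, 1 for Δ-C60 and 2 for WT clones against WT(N48). For Δ-C60 against WT clones it gave 4 (8.43%) in place of 3. An absolute log2 fold change over 1 left 1 (4.05%) for WT-Cre against EV-Cre and, without Lats2, 5 (6.52%) for EV-Cre and 5 (5.31%) for DMT-Cre against Ad-GFP, and no filter left 0 (1.02%) for WT against WT(N48) clones. Leaving out 1 library gave 2 to 5 (5.23 to 7.53%) for EV-Cre against EV-GFP, 3 to 6 (3.69 to 5.61%) for DMT-Cre against DMT-GFP, 0 to 0 (0.539 to 0.909%) for MT486-Cre against MT486-GFP and 0 to 3 (1.23 to 4.75%) for WT-Cre against EV-Cre. In the clones it gave 0 to 1 (0.423 to 10.3%) for MT194, 0 to 1 (0.0148 to 0.676%) for MT486, 0 to 3 (0 to 2.33%) for Δ-C60 and 0 to 2 (0.0741 to 4.5%) for WT against WT(N48), and 1 to 5 (0.742 to 13.3%) for Δ-C60 against WT. WT clones 1 and 3 left out together gave 0 (0.0214%) for Δ-C60 against WT and 0 (0.0143%) for WT against WT(N48). The causes were not tested, beyond the fewer libraries where some were left out.

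Signs of single values turned only where no call was made. With 1 library left out in turn, the log2 values ran from −0.42 to 0.20 for Axl in WT-Cre against EV-Cre, from −0.31 to 0.38 for Axl in the effect in WT minus EV, from −0.13 to 0.40 for Cyr61 in WT-Cre against WT-GFP, and from −0.0031 to 0.45 for Lats2 in the last comparison. Levels in CPM with DESeq2 size factors moved by less than the spread between libraries in 120 of 120 cases. With 2 libraries per group and no term for the experiment the intervals stayed wide.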
